A study of Mus musculus with 4 samples.

Results

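The RNA levels of 10 genes that mark microglia were followed in RNA from laser captured motor neuron cell bodies: C1qa, C1qb, C1qc, Tyrobp, Fcer1g, Ctss, Cd68, Csf1r, Aif1 and Trem2. They were found by gene symbol among the 27189 gene entries of the deposited tables, where each of the 10 had 1 entry. Expression had been measured by RNA-Seq in 4 libraries, 2 from mice transgenic for wild-type SOD1-YFP (strain 592) and 2 from mice transgenic for G85R SOD1-YFP (strain 737), each library made from 1 mouse of 3 months. All animals carried human genomic SOD1 fused to YFP on a mixed C57BL/6J x SJL/J background, from a genomic fragment and not from a promoter of 1 cell type, and the strains differ in transgene copy number as well as in the mutation, so that genotype, copy number and insertion cannot be told apart. From the ventral horn of each mouse, 3000 to 4000 large cell bodies stained with Azure B were collected, and in G85R sections cells with large fluorescent aggregates, which stained darker, were left out. The study measures what the mutant protein does to motor neuron transcripts before symptoms, and the 10 genes here mark a neighboring cell that the capture did not aim at. Which cells their transcripts came from was not tested.

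Microglia are the resident macrophages of the spinal cord. They take up debris, survey synapses and make C1q, the recognition molecule of the classical complement pathway, which is assembled from the products of C1qa, C1qb and C1qc. Trem2 and several Fc receptors lack signalling tails and pass their signal to the adaptors encoded by Tyrobp and Fcer1g, whose ITAM motifs recruit the kinase Syk, while Csf1r binds the growth factors Csf1 and Il34, on which microglia depend. Ctss and Cd68 belong to the endosomes and lysosomes of phagocytes, and Aif1 encodes the actin-binding protein Iba1 that is commonly stained to show microglia.

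The 3 C1q genes lie side by side on the minus strand of mouse chromosome 4, from 136436044 to 136454718 (NCBIM37, the assembly UCSC names mm9), in the order C1qb, C1qc, C1qa, with gaps of 3616 and 2851 bases. They span 18675 bases. The G85R transgene is inserted on chromosome 4 as well, at a place not given in the sources used here, and its part in the C1q levels was not tested. For C1qa the paper reports a significant difference between G85R and wild-type animals, and states that qRT-PCR also showed this change. It calls unclear whether the transcript came from motor neurons or from activated glia caught in the dissection. The study's pair of C1qa RT-PCR primers is shown here because it marks the part of the transcript that the pair can read. On the annotated C1qa transcript of 1040 bases the forward primer matches positions 31 to 50 in exon 1, ahead of the coding sequence, and the reverse primer matches positions 117 to 138 in exon 2, so that the product of 108 bases crosses an exon junction.
C1qa forward: atccagtttgatcggaccac
C1qa reverse: catcttcagccactgtccatac

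Promoters of 7 of the 10 genes were found in a RefSeq table of GRCm38.p6 (250 bases before to 50 bases after the start), and C1qa, Tyrobp and Csf1r had no entry. They were searched on both strands for GAGGAA, the core of sites for PU.1, the transcription factor encoded by Spi1 that directs macrophage and microglial genes. The core stood in 6 of the 7 promoters, those of C1qb, C1qc, Ctss, Cd68, Aif1 and Trem2 but not Fcer1g, and in 28.3% of all 32851 promoters in the table. The longer GAGGAAGT, which contains the core, stood in 2 of the 7 (C1qc and Ctss) and in 3.20% of all promoters. Both motifs were chosen after these promoters had been looked at, and a match is a run of letters and not a bound site. A stretch that holds the core is shown for each of the C1qb, C1qc, Ctss and Trem2 promoters (for Ctss the site of the longer motif, 1 of its 2 core sites), with the core (GAGGAA, or TTCCTC where it lies on the other strand) in capitals, to let the surrounding bases be compared.
C1qb, chr4:136886213-136886242, minus strand: gcagcaggatggGAGGAAcagaggggtgat
C1qc, chr4:136893090-136893119, minus strand: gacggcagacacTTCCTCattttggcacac
Ctss, chr3:95526774-95526803, plus strand: atgaaagttcacTTCCTCattgtggatgct
Trem2, chr17:48346349-48346378, plus strand: agcctcctttccTTCCTCcctccctcacgc
In C1qc and Ctss the ac just before the capitals completes the longer motif on the other strand, and the C1qb and Trem2 stretches do not hold it.

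Levels are given as RPKM, reads scaled to the length of the transcript and to the uniquely mapped reads of the library, which can be compared between genes because they are per length. The estimated reads that fell on genes numbered 21560318 to 25186594 per library, and 1 read was worth a median of 0.0195 to 0.0226 RPKM. All 10 genes had an RPKM above 0 in all 4 libraries, but from few reads, 7 to 478 per gene and library. The sum over the 10 genes was 791 and 897 estimated reads in wild-type replicates 1 and 2 and 1841 and 890 in G85R replicates 1 and 2. The captured cells showed motor neuron markers at far higher RPKM, with Chat, which makes acetylcholine, between 49.6 and 81.2 and the neurofilament gene Nefl between 3905 and 5044. The labels give no date or batch for the libraries. G85R replicate 1 was the highest library for every one of the 10 genes, and values are therefore given for each library.

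C1qa, in RPKM, had 3.29 and 3.24 in the wild-type libraries (replicates 1 and 2) against 11.0 and 4.14 in the G85R libraries (same order). C1qb had 4.35 and 4.43 in the wild-type pair against 8.82 and 4.75 in the G85R pair. C1qc had 2.21 and 3.97 in the wild-type pair against 6.75 and 4.25 in the G85R pair. For each of the 3 chains both G85R values lay above both wild-type values, but G85R replicate 2 exceeded the higher wild-type library by little, while G85R replicate 1 was higher than G85R replicate 2 by 2.67-fold for C1qa, 1.86-fold for C1qb and 1.59-fold for C1qc. The wild-type replicates were nearly equal for C1qa and C1qb, and differed by 1.80-fold for C1qc. The chains did not keep a fixed ratio. That of C1qa to C1qb was 0.755 and 0.732 in the wild-type pair against 1.25 and 0.871 in the G85R pair, highest in the library where all 3 were highest.

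The receptors and their adaptors showed the same excess in G85R replicate 1. Tyrobp (chromosome 7, 31198807 to 31202596), which encodes the ITAM adaptor DAP12, had 1.39 and 1.48 in the wild-type pair against 5.29 and 1.93 in the G85R pair. Fcer1g (chromosome 1, 173159703 to 173164496), which encodes the common Fc receptor gamma chain, had 1.14 and 0.832 in the wild-type pair against 3.64 and 0.857 in the G85R pair. Trem2 (chromosome 17, 48485726 to 48493472), a lipid-sensing receptor that signals through DAP12, had 1.07 and 0.804 in the wild-type pair against 3.42 and 0.681 in the G85R pair. In Tyrobp G85R replicate 2 was just above both wild-type libraries. In Fcer1g it fell between them, and in Trem2 below both, so that in Fcer1g and Trem2 the higher G85R mean came from 1 library. The gap between the G85R replicates was 2.74-fold in Tyrobp, 4.25-fold in Fcer1g and 5.03-fold in Trem2, the last being the widest of the 10 genes.

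Csf1r, the receptor tyrosine kinase for Csf1 and Il34, had the smallest ratio of genotype means of the 10 genes, 1.22. It had 1.92 and 2.34 in the wild-type pair against 3.42 and 1.79 in the G85R pair. G85R replicate 2 was the lowest of the 4 libraries and G85R replicate 1 the highest. Neither of its growth factors, which neurons can make, was called by limma. Csf1 had 11.7 and 11.3 in the wild-type pair against 13.3 and 13.6 in the G85R pair, and Il34 had 3.63 and 3.80 in the wild-type pair against 3.17 and 4.13 in the G85R pair. In neither was G85R replicate 1 the highest library.

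Among the phagocyte genes, Ctss (chromosome 3, 95330708 to 95360325), a cysteine protease that works in endosomes, had the highest level of the 10 in every library. Its RPKM was 5.61 and 4.95 in the wild-type pair against 13.8 and 6.64 in the G85R pair. Both G85R values lay above both wild-type values. Cd68 (chromosome 11, 69477715 to 69479655), a lysosomal glycoprotein of macrophages, had 0.244 and 0.591 in the wild-type pair against 2.25 and 0.539 in the G85R pair. Aif1 (chromosome 17, 35307936 to 35313013) had 0.794 and 0.308 in the wild-type pair against 1.28 and 0.626 in the G85R pair. For Cd68 and Aif1 the wild-type replicates themselves were 2.42-fold and 2.58-fold apart, from 7 to 19 reads, and G85R replicate 2 fell between them.

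**Figure D1:**
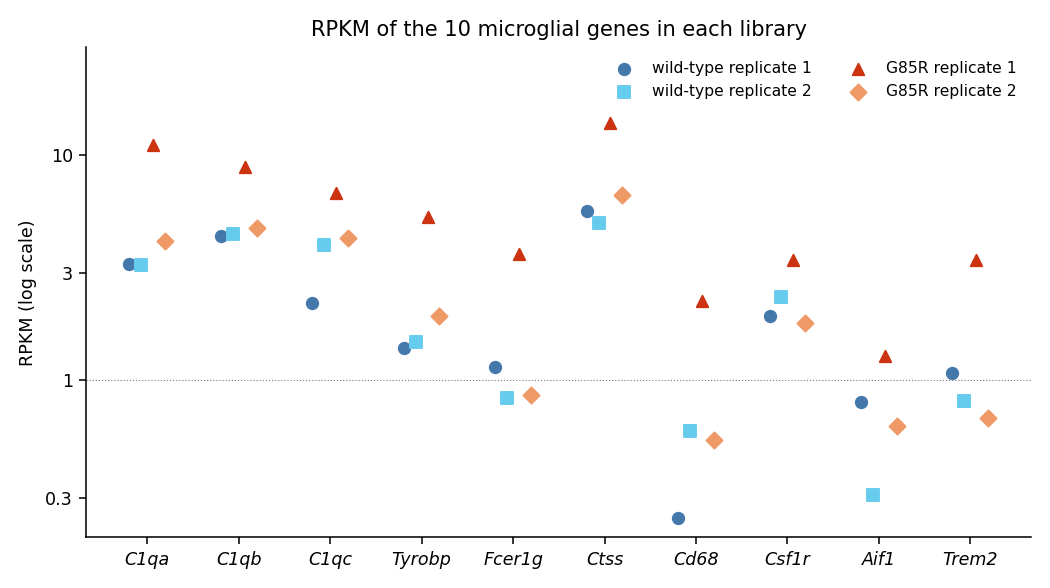
RPKM (log scale) of the 10 microglial genes, with 1 point for each of the 4 libraries and a dotted line at an RPKM of 1. G85R replicate 1 is the highest point in all 10 genes, from 1.28 in Aif1 to 13.8 in Ctss, while G85R replicate 2 lies near the wild-type libraries.

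In wild-type the levels ran in the order Ctss (5.28 ± 0.465, SD, n = 2), C1qb (4.39 ± 0.0546), C1qa (3.27 ± 0.0319), C1qc (3.09 ± 1.25), Csf1r (2.13 ± 0.302), Tyrobp (1.43 ± 0.0627), Fcer1g (0.988 ± 0.221), Trem2 (0.937 ± 0.187), Aif1 (0.551 ± 0.344) and Cd68 (0.417 ± 0.245). Of these neighbors, the values of C1qa and C1qc, of C1qc and Csf1r, of Fcer1g and Trem2 and of Aif1 and Cd68 overlapped. In G85R replicate 1 C1qa stood above C1qb, Tyrobp and Fcer1g above Csf1r, with Trem2 and Csf1r nearly equal, and Cd68 above Aif1. Among all genes listed above 0, the 10 genes ranged from the 19.0th to the 56.0th percentile of RPKM in wild-type replicate 1, from the 22.2th to the 54.7th in wild-type replicate 2 and from the 28.0th to the 59.9th in G85R replicate 2. In G85R replicate 1 they ranged from the 35.5th to the 71.9th, so that they were genes of low to middle level there too.

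The summed RPKM of the 10 genes was 22.0 and 23.0 in the wild-type libraries (replicates 1 and 2) against 59.8 and 26.2 in the G85R libraries (same order). Relative to the wild-type mean G85R replicate 1 was 2.66-fold and G85R replicate 2 1.17-fold. The ratio of the genotype means was 1.91 with all 4 libraries and 1.17 without G85R replicate 1, and it was 1.85 for the C1q genes and 1.97 for the other 7. Against 1000 RPKM of 9 motor neuron markers, the 10 genes summed to 2.24 and 2.17 RPKM in wild-type and to 6.73 and 2.56 in G85R. In bulk RNA of this kind more cells of a type and more RNA per cell cannot be told apart.

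All 10 genes were highest in G85R replicate 1. Among the 8 of them with a mean RPKM of at least 1 this held for 8, compared with 27.3% of the 11530 entries at that level. For 9 of the 10, all but Csf1r, G85R replicate 1 was at least 1.5 times each other library. This held for 7 of the 8 and for 0.642% of those entries, many of them far more abundant. No share matched for level was computed. Both G85R libraries lay above both wild-type libraries for 5 of the 10 (C1qa, C1qb, C1qc, Tyrobp and Ctss), all among the 8, and below them for 0. Over all those entries they lay above for 17.3% and below for 23.9%. Measured as the deviation of G85R replicate 1 from the mean of the other 3 libraries on the log2(RPKM + 0.1) scale, the 8 of the 10 genes that reached a mean RPKM of 1 ranked between 22 (Trem2) and 141 (Csf1r) of 11530. Their deviations were 0.74 for Csf1r to 1.91 for Trem2, and the 95th and 99th percentiles of all entries were 0.43 and 0.82. Cd68 and Aif1, with mean RPKM under 1, were left out of that ranking, and Fcer1g and Trem2 passed only through G85R replicate 1, since their wild-type means were under 1.

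Counting error was smaller than the excess in that library for the 5 genes with 1 annotated transcript. For these 5 the RPKM corresponded to whole reads (within 0.05 of a read) in all 4 libraries, and exact Poisson intervals (95%) were computed. The other genes had no interval. Among them Aif1 rested on about 27 reads in G85R replicate 1 and about 19 in wild-type replicate 1. C1qa rested on 104 and 109 reads in wild-type and on 319 and 127 in G85R, with intervals of 2.69 to 3.98 and 2.66 to 3.91 RPKM in wild-type and of 9.86 to 12.3 and 3.45 to 4.92 in G85R. In Fcer1g, the least covered of the 5, the interval was 2.80 to 4.65 in G85R replicate 1, from 64 reads, and reached no higher than 1.73 in any other library. The interval of G85R replicate 1 lay above those of the other 3 libraries in all 5 genes. In C1qc the wild-type libraries also differed by more than counting error, with 1.71 to 2.80 in replicate 1 and 3.32 to 4.71 in replicate 2. The intervals cover counting error only and compare libraries, not genotypes.

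**Figure D2:**
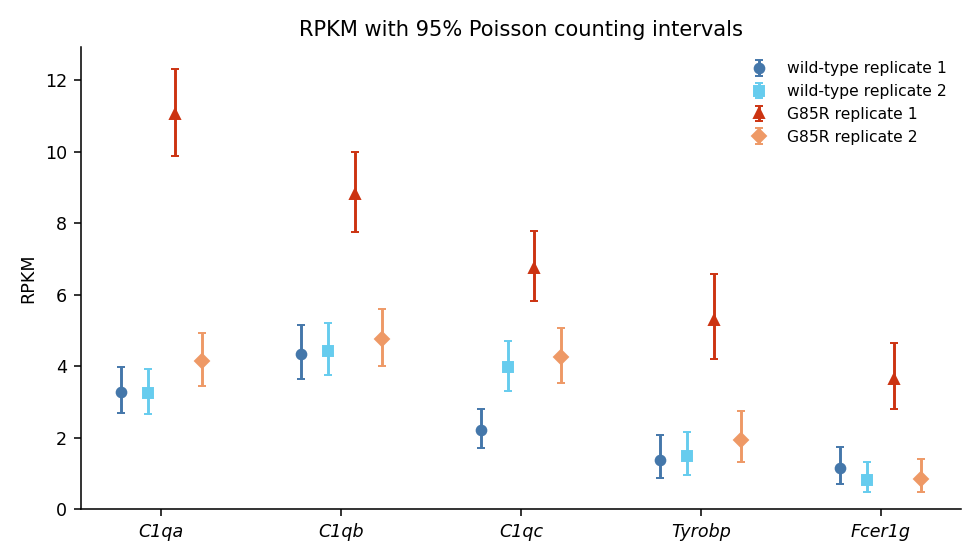
RPKM of the 5 genes with 1 annotated transcript in each library, with exact Poisson intervals (95%) as bars. The interval of G85R replicate 1 clears those of the other libraries in each gene, as for C1qa with 9.86 to 12.3 against at most 4.92.

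The genotypes were compared with limma, a linear model whose variance estimate borrows from all genes, on log2(RPKM + 0.1), over all 11530 entries. Fold changes on this scale understate those of low genes. None of the 8 microglial genes tested passed limma's threshold, a p under 0.05 after Benjamini-Hochberg adjustment, compared with 0.642% of all tested entries. Of the 8 genes, 4 (C1qa, C1qc, Tyrobp and Ctss) had an unadjusted p under 0.05, compared with 11.0% of all tested entries. With voom 0 were called and 3 had an unadjusted p under 0.05, compared with 11.2% of all entries. With a log-linear likelihood ratio test, which was run on all 27189 entries, 0 of the 10 were called and 1, C1qa, had an unadjusted p under 0.05, compared with 1.29% of all entries. That test took rounded RPKM as if they were reads, so that genes at a few RPKM could seldom be called whatever their depth. The log2 fold change was 1.11 for Tyrobp (standard error 0.42, adjusted p = 0.405 from limma), 1.03 for C1qa (0.40, adjusted p = 0.417), 0.85 for Ctss (0.31, adjusted p = 0.387) and 0.83 for C1qc (0.31, adjusted p = 0.408). It was 0.81 for Fcer1g and 0.69 for Trem2, with the largest standard errors of the 8, 0.58 and 0.63. C1qb had 0.55 and Csf1r 0.22. The median of the 8 was 0.82, and that of all tested entries was -0.02. Cd68 and Aif1 were not tested. With a minimum mean RPKM of 0.1 their log2 fold changes were 1.33 and 0.73, and neither was called.

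These comparisons turned on which G85R library was used. Without G85R replicate 1 the median log2 fold change of the 8 genes was 0.22, 5 of the 8 were positive, and those of Fcer1g, Csf1r and Trem2 were -0.17, -0.23 and -0.40. The largest was then 0.50 for C1qc, with adjusted p between 0.823 and 0.994 from limma over the 8 genes. Without G85R replicate 2 the median was 1.55, and 6 of the 8 genes were called, C1qa, C1qb, Tyrobp, Fcer1g, Ctss and Trem2, in a fit in which the lone G85R library is assumed to vary like wild-type and in which 1.63% of all entries were called. Fcer1g and Trem2 were among the tested entries only because of the G85R library kept in that fit. A single gene compared 2 against 2 by an exact permutation test cannot reach a two-sided p below 0.333.

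**Figure D3:**
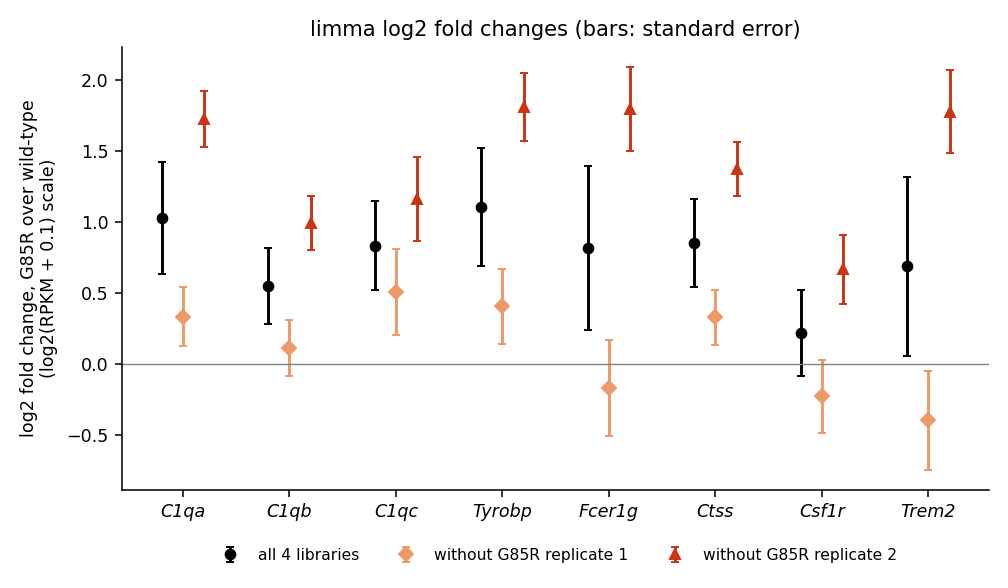
Log2 fold change of G85R over wild-type from limma for the 8 tested genes, with all 4 libraries and without either G85R library, and the standard error as bars. Without G85R replicate 1 the values lie between -0.40 (Trem2) and 0.50 (C1qc), and without G85R replicate 2 between 0.67 (Csf1r) and 1.81 (Tyrobp).

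Other genes of microglia were read from a list of 26. It had 8 tested genes, of which 0 were called by limma, 0 had an unadjusted p under 0.05, 3 lay higher in both G85R libraries and 0 lower. Its median log2 fold change was 0.13, and -0.07 without G85R replicate 1. Markers of surveying microglia, the fractalkine receptor gene Cx3cr1, the purinergic receptor gene P2ry12 and Tmem119, were near an RPKM of 1 in all libraries. Cx3cr1 had 1.16 and 1.20 in the wild-type pair against 1.74 and 0.870 in the G85R pair, and P2ry12 1.16 and 0.871 in the wild-type pair against 1.32 and 0.984 in the G85R pair. Tmem119 had 1.15 and 1.10 in the wild-type pair against 1.28 and 1.04 in the G85R pair, so that its libraries hardly differed. Of the 26 genes 20 were highest in G85R replicate 1, but only Laptm5, a lysosomal membrane protein gene of leukocytes, did so by 1.5 times or more among the 8 tested, with 1.28 and 1.99 in the wild-type pair against 3.40 and 2.06 in the G85R pair. Among the untested genes Itgam, Itgb2, Ptprc, Irf8 and Siglech also did so, at 0.256 to 0.697 RPKM in that library, and the others did not. The list summed to 38.0 and 42.3 RPKM in wild-type and to 51.8 and 42.1 in G85R, 1.29-fold the wild-type mean in G85R replicate 1 against 2.66-fold for the 10 genes. Spi1, which encodes PU.1, had 0.180 and 0.386 in the wild-type pair against 0.393 and 0.185 in the G85R pair and was not tested.

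Complement genes other than C1q were measured too. Of 22 found, 7 were tested and 0 were called by limma, while 1 had an unadjusted p under 0.05 with higher and 3 with lower levels in G85R. Their median log2 fold change was -0.32, or -0.35 without G85R replicate 1, and 0 of the 7 were highest in that library. The proteases that complete the C1 complex were near absent, with C1ra listed at 0 in 3 libraries and C1s at no more than 0.0774. C3, the central component, had 1.37 and 1.26 in the wild-type pair against 1.37 and 0.708 in the G85R pair. Both G85R libraries lay below wild-type in Serping1, the C1 inhibitor, with 1.91 and 2.70 against 1.47 and 1.09, in Cr1l, a regulator of C3 on the cell surface, and in Masp1, a protease of the lectin pathway. None of these 3 was called by limma or by the likelihood ratio test, which called 1 other gene of the list. Clu, the most abundant gene of the list and one that neurons and astrocytes express, had 805 and 852 in the wild-type pair against 935 and 1060.2 in the G85R pair.

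Downstream of the adaptors, 18 genes of ITAM and Fc receptor signalling had 6 tested members, of which 0 were called by limma and 1, the adaptor gene Lat2, had an unadjusted p under 0.05. Their median log2 fold change was 0.00. The kinase gene Syk had 0.375 and 0.404 in the wild-type pair against 0.258 and 0.187 in the G85R pair, below wild-type in both. Among the Fc receptors that use the Fcer1g chain, Fcgr3 had 0.477 and 0.514 in the wild-type pair against 1.01 and 0.568 in the G85R pair. Fcgr1, with 0.145 and 0.149 in the wild-type pair against 0.246 and 0.291 in the G85R pair, and Fcgr4, which was at most 0.144, were highest in G85R replicate 2. The most abundant gene was Grb2, an adaptor expressed in most cells, with 59.6 to 69.6 over the 4 libraries.

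A list of 27 genes that rise in activated microglia or mark lysosomes had 13 tested genes, of which 1 was called by limma, B2m, the light chain of MHC class I. B2m had 17.7 and 20.0 in the wild-type pair against 58.4 and 70.8 in the G85R pair, high in both G85R libraries, unlike the 10 genes. The called count was 3 without G85R replicate 2 and 4 with the likelihood ratio test. Many genes of this list are also made by motor neurons, and its most abundant one, Fth1, the ferritin heavy chain, had 884 and 922 in the wild-type pair against 1187 and 1095 in the G85R pair. Spp1, a motor neuron gene as well as an activation marker, had 990 and 1042 in the wild-type pair against 635 and 796 in the G85R pair. Of the 27 genes 14 were highest in G85R replicate 1. Among those under a mean RPKM of 1, the cystatin gene Cst7 had 0 and 0.0667 in the wild-type pair against 1.28 and 0.329 in the G85R pair, while Lpl and Clec7a were above 0 in G85R replicate 1 alone, at 0.425 and 0.12. Others were not highest there. The glycoprotein gene Gpnmb had 0.20 and 0.332 in the wild-type pair against 0.250 and 0.0785 in the G85R pair, the chemokine gene Ccl6 was highest in G85R replicate 2 at 0.270, and the chemokine gene Ccl3 and the growth factor gene Igf1 were highest in a wild-type library. Itgax was listed at 0 in all 4 libraries. Apoe, made mainly by astrocytes and by activated microglia, had 136 and 160 in the wild-type pair against 293 and 159 in the G85R pair, with G85R replicate 1 the highest library as in the 10 genes, and its adjusted p was 0.511 from limma.

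Markers of other cells were read in the same libraries. Those of 11 astrocyte genes summed to 1067 and 1018 RPKM in wild-type and to 1436 and 1102 in G85R, 9 of the 11 were highest in G85R replicate 1, 0 were called by limma and 2 had an unadjusted p under 0.05. The likelihood ratio test called 2 of the 11, and limma called 1 without G85R replicate 2. Gfap, the filament gene that rises in reactive astrocytes, had 11.5 and 17.1 in the wild-type pair against 91.9 and 28.4 in the G85R pair. The 11 oligodendrocyte genes summed to 986 and 936 in the wild-type pair against 1171 and 901 in the G85R pair, with 8 of 11 highest in G85R replicate 1 and 0 called by limma. The 9 motor neuron genes summed to 9815 and 10558 in the wild-type pair against 8879 and 10255 in the G85R pair, and 0 of 9 were highest in G85R replicate 1, with 0 called by limma and 2 by the likelihood ratio test. By summed RPKM G85R replicate 1 therefore had more RNA of the 10 microglial genes and of the other microglia, astrocyte and oligodendrocyte lists than any other library. It had less of the motor neuron list. Its sum was 1.38-fold the wild-type mean for the astrocyte list and 1.22-fold for the oligodendrocyte list. The activation list differed, with sums of 3046 and 3219 in the wild-type pair against 3329 and 3334 in the G85R pair. Abundant genes weigh most in such sums, as in the astrocyte list S100b, with 498 and 483 in the G85R pair, and Aldoc, with 671 and 458. The part of these differences in the microglial excess was not tested.

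Endothelial and blood genes were read as well. The 8 endothelial genes summed to 14.4 and 14.1 in the wild-type pair against 13.2 and 12.2 in the G85R pair, with 2 of the 8 highest in G85R replicate 1. Of 16 genes of border macrophages and blood leukocytes none reached a mean RPKM of 1, 5 were listed at 0 in all libraries, among them the monocyte receptor gene Ccr2, and Mrc1, which marks border macrophages, was at most 0.0277. The sum of this list was 1.22 and 1.22 in the wild-type pair against 1.61 and 1.20 in the G85R pair. The red blood cell genes found, Hbb-b1 and Alas2, summed to 1.82 and 2.10 in the wild-type pair against 11.4 and 10.8 in the G85R pair, nearly equal in both G85R libraries, and Hbb-b1, whose reads can be shared with near-identical globin genes, was called by limma but not by the likelihood ratio test or without a filter on low values.

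**Figure D4:**
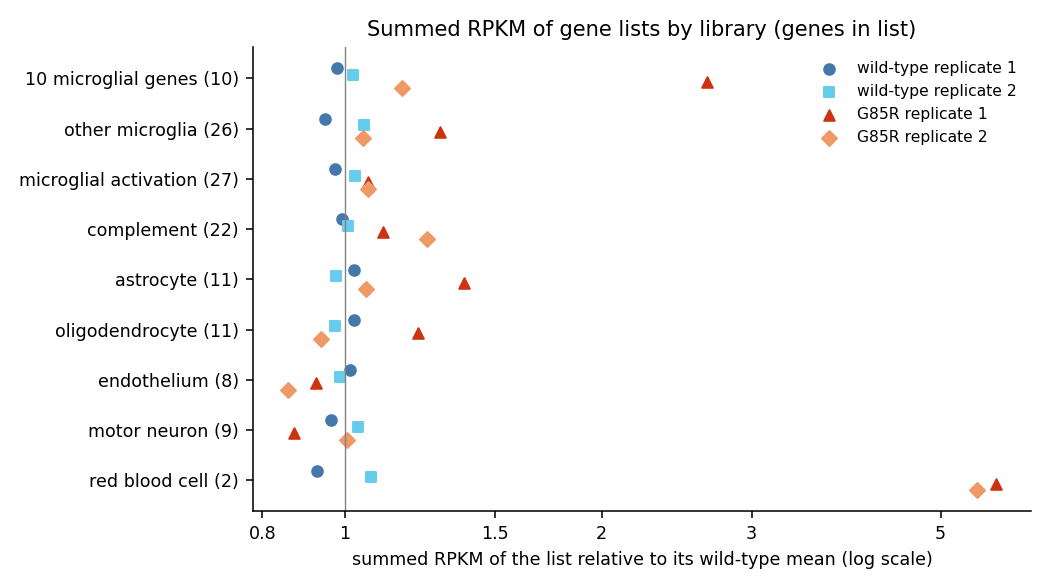
Summed RPKM of each gene list in each library, relative to the mean of the wild-type libraries (log scale), with the number of genes in parentheses. G85R replicate 1 stands at 2.66 for the 10 microglial genes, 1.38 for astrocyte and 1.22 for oligodendrocyte genes and 0.872 for motor neuron genes, while the red blood cell genes are raised in both G85R libraries.

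Outside the 10 genes, the 5 entries whose deviations over the 4 libraries were nearest to the median deviations of the 8 tested genes (by Euclidean distance on the log2(RPKM + 0.1) scale) were Rplp1, Cox7a2l, Slc1a3, AK203938 and AK205190, at distances of 0.24 to 0.33. Rplp1, a ribosomal protein gene, had 46.0 and 47.0 in the wild-type pair against 117 and 48.4 in the G85R pair, Cox7a2l, which encodes a protein of respiratory supercomplexes, had 8.90 and 7.44 in the wild-type pair against 27.0 and 8.87 in the G85R pair, and Slc1a3, a glutamate transporter gene of astrocytes, had 1.35 and 0.990 in the wild-type pair against 2.81 and 1.24 in the G85R pair. A total of 254 other tested entries lay as near as the farthest of the 8 genes, C1qc at 0.84. With 4 libraries, likeness of this kind is a description.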

How the data were processed

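Motor neuron RNA from 4 mice was analyzed. Reads had been mapped with Bowtie 0.12.3 to mm9 and to splice junctions, and quantified with Cufflinks, and the deposited values are RPKM, which the authors also gave after adding 1 read to every gene. The difference of these values is the RPKM of 1 read, and dividing by it gave the estimated reads. Because Cufflinks divides reads between isoforms, low estimates were whole in only 62.2% to 63.5% of cases (within 0.05), and counting intervals were limited to genes with 1 transcript. Libraries are separate mice, and intervals cover counting error only.

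The genotype comparison used R 4.3.3 and its package limma 3.58.1, with an intensity trend in the variance, on log2(RPKM + 0.1) for entries with a mean RPKM of at least 1, with Benjamini-Hochberg adjustment over all of them, and the fit was tested on simulated data. RPKM are not counts, and a log-linear likelihood ratio test, the kind the paper names, was kept as an alternative (run here as a Poisson test on RPKM with 1 read added and rounded, details that the paper gives only by reference), beside other pseudocounts, scalings, filters, variance models, voom, a replicate block and leaving out each library. Python 3.11.15, pandas 2.3.3, scipy 1.17.1 and matplotlib 3.10.9 served for the remainder.

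The 10 genes and all lists were chosen with earlier results of these data known, so no test over a list was made. Named are the 10 genes, the called, the most abundant and the near-absent genes of each list, and the 5 entries of nearest pattern. A gene that this rule would name is not reported here. Other genes named, such as Laptm5, Apoe and Gfap, were picked after their values were seen. Symbols missing in the files were matched by Entrez identifier or RefSeq synonym.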

Additional observations from a re-analysis of the deposited data

How the results depend on the processing

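None of the 10 microglial genes was called under the alternatives, except with a replicate block, where 2 were called (C1qa and Ctss), and without G85R replicate 2, so that leaving out 1 library gave 0 to 6 calls. With the block 4 genes of the activation list, 1 astrocyte and 1 motor neuron gene were also called. The labels do not say what libraries of the same number share, and the correlation of their deviations, between the wild-type and the G85R difference of replicate 1 from replicate 2, was 0.22 over genes. Over all tested entries limma called 74, which became 527 with the replicate block, 40 after quantile normalization, 49 without the intensity trend, 17 and 112 with a minimum mean RPKM of 5 and without a filter, and 78 to 188 with 1 library left out. Without G85R replicate 1 the log2 fold change turned negative for 3 genes, and with either G85R library left out it was -0.17 or 1.80 for Fcer1g, -0.23 or 0.67 for Csf1r and -0.40 or 1.78 for Trem2. The cause was not tested. Without 1 library the ratio of the summed RPKM was 1.17 to 2.66. With 2 libraries in each group and 7 to 478 reads a gene, depth limits Cd68 and Aif1 most.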
